A study of Homo sapiens with 12 samples.

Results

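IMR-32 cells treated with 100 nM THZ531 were compared with IMR-32 cells given DMSO, on 4 of the 12 arrays of the series. The arrays were chosen by their labels alone, as the 2 arrays of the 100 nM group and the 2 arrays of the DMSO group of this line. The series measured total RNA of 2 human neuroblastoma lines, Kelly and IMR-32, on PrimeView expression arrays after 6 h in DMSO, 100 nM THZ531 or 400 nM THZ531. There were 2 arrays in each of the 6 groups, labelled as biological duplicates. IMR-32 is an established MYCN-amplified line, so each group is a model of 1 cell line in culture, grown in RPMI-1640 with serum and antibiotics. All groups received the same spike-in RNAs and the same labelling, and the DMSO cells carried only the vehicle. With 2 arrays a group the precision of each value is limited by their number, and an exact permutation test of 2 against 2 arrays cannot go below a two-sided p of 0.333.

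THZ531 is a covalent inhibitor of CDK12 and CDK13, which pair with cyclin K and phosphorylate the tail of RNA polymerase II while it transcribes a gene. CDK12 is known for keeping up the full-length transcription of long genes, many of which act in the DNA damage response, among them genes of homologous recombination. MYCN-amplified neuroblastoma cells are known for a high output of transcription. The comparison asks which transcripts differed after 6 h at the lower of the 2 doses.

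The 2 arrays at 100 nM did not look alike. In replicate 1 most of the 18244 genes lay below DMSO, with a median change of -0.50 on the log2 scale against the mean of the DMSO arrays, and 5841 genes were lower by more than 1. In replicate 2 the median change was -0.06, and 48 genes were lower by more than 1. The 7 lists with the lowest medians in replicate 1 were homologous recombination, checkpoint signalling, mitosis, zinc finger proteins, nuclear pore, cullin and F-box genes, and the Mediator complex, while immediate early and replication-dependent histone transcripts had the highest medians in it. No gene passed the test over both replicates.

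The shift of replicate 1 was broad. It had 13264 genes (72.7%) below both DMSO arrays, 14.5% of genes within their range and 12.8% above both. Replicate 2 had 5918 genes (32.4%) below both DMSO arrays, 48.4% within their range and 19.2% above both. Changes above 1 were seen for 142 genes in replicate 1 and for 8 genes in replicate 2. The DMSO arrays themselves had median changes of -0.12 and 0.12 around their mean, so the median of replicate 2 lay between them and that of replicate 1 did not. At 400 nM the medians were -0.63 and -0.75. The methods of the study state that cells were counted before lysis and that a fixed number was collected per replicate, in a passage that names the 400 nM and DMSO treatments. The counts of single samples were not used here, so in these bulk RNA values a lower number of cells and less RNA per cell cannot be told apart.

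**Figure D1:**
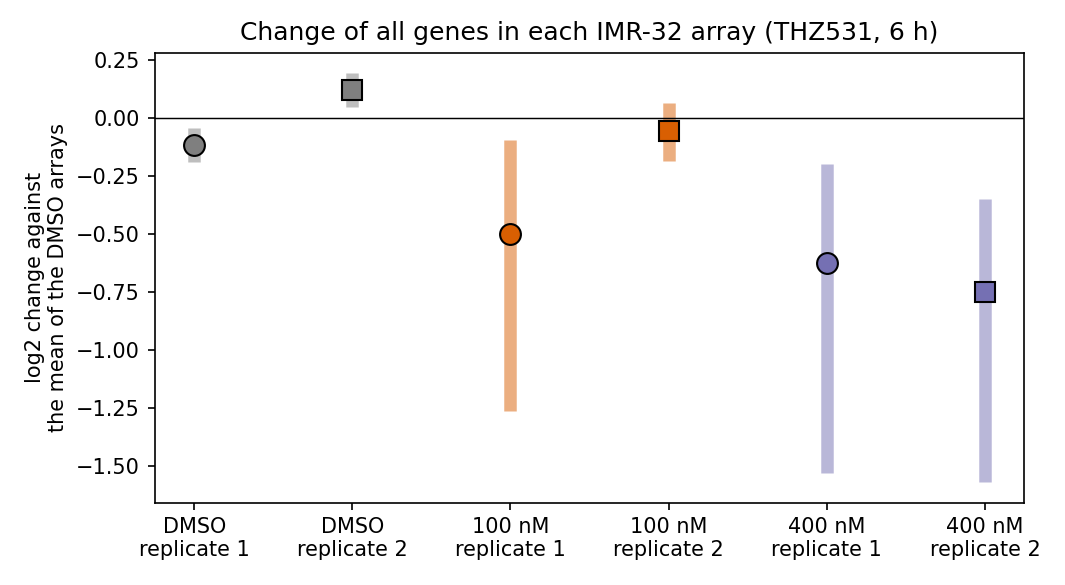
Median (point) and interquartile range (bar) of the log2 change of 18244 genes in each IMR-32 array, against the mean of the 2 DMSO arrays. The medians were -0.50 and -0.06 in the 100 nM arrays, and -0.63 and -0.75 in the 400 nM arrays.

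Over all genes, the root mean square difference between arrays placed replicate 2 beside DMSO. It was 0.24 between 100 nM replicate 2 and DMSO replicate 1, and 0.40 between 100 nM replicate 2 and DMSO replicate 2. The DMSO arrays differed from each other by 0.41. On this scale replicate 2 was no farther from either DMSO array than the DMSO arrays were from each other. With each array centred on its median, the difference of replicate 2 from DMSO replicate 1 was 0.24 and from DMSO replicate 2 it was 0.36, the second slightly above the 0.34 of the DMSO pair. Replicate 1 differed from the DMSO arrays by 1.06 and 1.30, from replicate 2 of its own group by 1.07, and from the 400 nM arrays by 0.45 and 0.54. Replicate 1 was therefore nearer to the higher dose than to its own duplicate. After the same centring the difference between the 100 nM arrays was still 0.87, against 0.29 for the 400 nM pair.

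**Figure D2:**
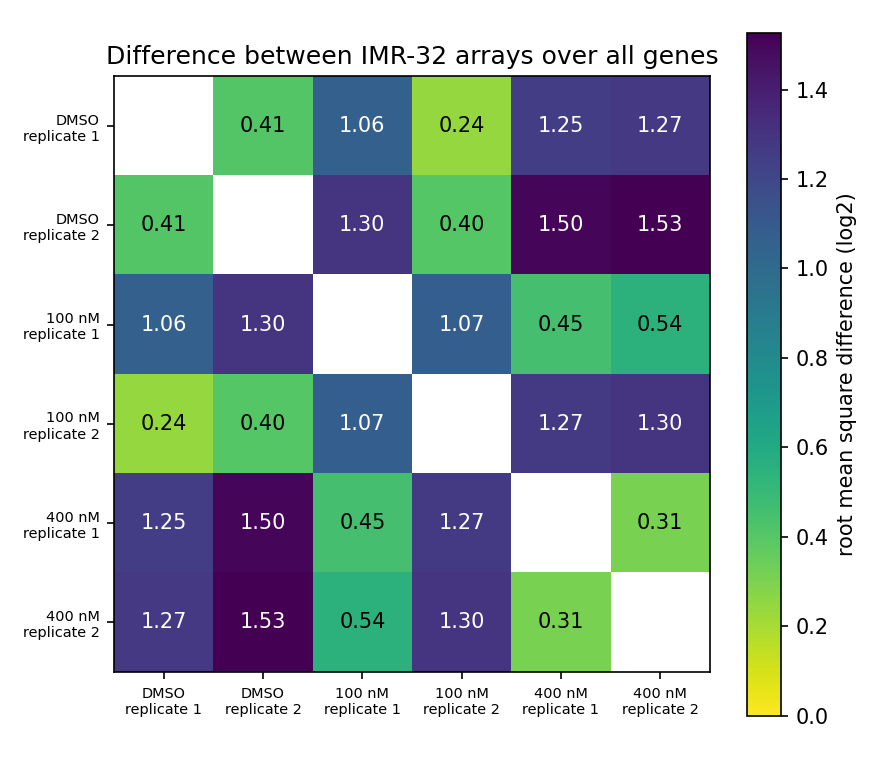
Root mean square difference in log2 intensity over 18244 genes between each pair of IMR-32 arrays, on a colour scale that starts at 0. The 100 nM replicate 2 array differed from the DMSO arrays by 0.24 and 0.40, and from replicate 1 of its own group by 1.07.

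The same order appeared when each treated array was paired with a different DMSO array, so that the changes set side by side shared no array. Across genes, which are not independent replicates, Pearson's r between the changes of the 2 arrays at 100 nM was 0.31 or 0.12, depending on the pairing with DMSO. Between replicate 1 and the 400 nM arrays it ran from 0.83 to 0.88, close to the 0.90 to 0.92 between the 400 nM arrays. Between replicate 2 and the 400 nM arrays it ran from 0.11 to 0.35. The hybridisation control rows, which reflect the array and not the cells, moved with this. Their mean log2 level was 10.85 and 11.31 with DMSO, 10.55 and 11.03 with 100 nM and 10.51 and 10.53 with 400 nM, so they were lower in the arrays with large shifts, and their part in the shift was not tested. The ERCC spike-in rows lay between 6.26 and 6.29 in all 12 arrays, as the scaling makes them. Median intensities were 107.6 and 131.8 with DMSO, 68.2 and 111.7 with 100 nM and 59.9 and 55.9 with 400 nM.

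Marker lists of neuroblastoma and other cell types were used to look at the type of the cells. Kelly is also a neuroblastoma line, so these lists cannot check the label IMR-32 itself. The 9 measured adrenergic neuroblastoma markers had DMSO levels of 7.24 to 13.7, with HAND2 at 13.4 and 13.8 and PHOX2A at 11.6 and 11.7. The 4 leukocyte markers had levels of 4.17 to 6.65 and the 4 epithelial markers levels of 4.68 to 5.78, where the median of all rows was 6.40. Others reached above that median. The 10 mesenchymal or fibroblast markers had levels of 4.46 to 9.53, the highest being SNAI2 at 9.34 and 9.72, and the 2 of 4 Schwann cell markers that were measured had 6.09 and 7.12, the higher being SOX10 at 7.09 and 7.16. The median change of the mesenchymal markers was -0.25 in replicate 1 and -0.11 in replicate 2, and that of the Schwann cell markers -0.54 and -0.0484. All 4 epithelial markers were higher in replicate 2 than the DMSO mean, by 0.43 to 0.69, while their changes in replicate 1 ran from -0.74 to 0.13. The leukocyte markers changed by -0.38 to 0.19 in replicate 1 and by -0.56 to 0.28 in replicate 2. The part of these lists in the results was not tested.

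Over both replicates, limma fitted to all 12 arrays called 0 genes lower (0% of 18244) and 0 genes higher (0%) at a false discovery rate of 0.05. The smallest adjusted p was 0.465, which many genes shared, and every gene named below had this value or a higher one in this fit. Without adjustment, 723 genes (3.96%) had a p under 0.05 and lay lower, and 83 (0.455%) lay higher. The median over all genes was a change of -0.30. Both 100 nM arrays lay below both DMSO arrays for 4919 genes (27.0%) and above both for 1163 genes (6.37%). This split depended on the scaling. With each array centred on its median, 2689 genes lay below and 5231 above, and the median over all genes became 0.15. With quantile normalization 2319 lay below and 4830 above, and the median change was 0.07. Directions below are those of the spike-in scaling, in which both 100 nM arrays were allowed to be lower as a whole.

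Without replicate 2, 5020 genes (27.5%) were lower and 125 genes (0.685%) higher in the same test, with a smallest adjusted p of 5.93e-04. That fit sets 1 treated array against 2 DMSO arrays, assumes that the lone array varies as the other groups do, and leaves the distance between the 100 nM arrays out of the pooled spread. Without replicate 1, 0 genes passed in either direction, while 91 genes lay lower and 104 higher with an unadjusted p below 0.05. The calls of replicate 1 also moved with the scaling, to 2463 lower and 2115 higher with median centring and 1829 lower and 846 higher with quantile normalization. Under all 3 scalings 1699 genes were lower and 123 were higher.

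The target kinases came first. CDK12 had log2 levels of 8.24 and 8.60 with DMSO, 6.63 and 8.07 with 100 nM, and 5.67 and 5.82 with 400 nM. CDK13 had 8.33 and 8.73 with DMSO, 5.68 and 8.17 with 100 nM, and 4.85 and 4.97 with 400 nM. Both kinases were thus below DMSO in each 100 nM array, far below in replicate 1 and just below in replicate 2, and lower again at 400 nM. The changes over both replicates were -1.07 ± 0.57 for CDK12 and -1.60 ± 0.81 for CDK13 (SE, n = 2 arrays a group). Without replicate 2 they were -1.79 ± 0.57 and -2.85 ± 0.70, with adjusted p of 0.049 and 0.019. CCNK, which encodes their partner cyclin K, had 10.27 and 10.41 with DMSO against 9.64 and 10.34 with 100 nM, and replicate 2 fell within the DMSO range (adjusted p = 0.53).

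The other kinases and cyclins of transcription followed replicate 1 more than replicate 2. In the list of 20 transcription CDKs and cyclins, 9 had both 100 nM arrays below both DMSO arrays and 0 had both above, beside 27.0% and 6.37% of all genes. Their median change was -1.31 in replicate 1 and -0.24 in replicate 2. CDK7, the kinase of TFIIH, had 9.0 and 9.41 with DMSO and 7.43 and 8.77 with 100 nM, so the groups did not overlap. CDK9, the kinase of P-TEFb, had 8.70 and 8.85 with DMSO and 7.39 and 8.72 with 100 nM, so that replicate 2 fell inside the DMSO range. LARP7, which holds the 7SK RNA that restrains P-TEFb, had 7.95 and 9.12 with DMSO and 6.65 and 7.69 with 100 nM.

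CCNC encodes cyclin C, the partner of CDK8 in the kinase module of Mediator, and had one of the 10 widest gaps between the groups. Its levels were 10.18 and 10.47 with DMSO, 8.64 and 9.41 with 100 nM, and 6.86 and 6.80 with 400 nM. Replicate 2 therefore lay below both DMSO arrays by more than the DMSO arrays were apart. The change was -1.30 ± 0.68, and without replicate 2 it was -1.68 ± 0.84 with an adjusted p of 0.18. Among 27 Mediator genes, whose complex links enhancer-bound factors to RNA polymerase II, 15 (55.6%) lay below DMSO in both arrays and 0 above, beside 27.0% and 6.37% of all genes. MED29 had 9.0 and 9.25 with DMSO and 5.85 and 8.60 with 100 nM. MED7 had 8.40 and 8.48 with DMSO and 5.15 and 7.99 with 100 nM. The median change of the list was -1.54 in replicate 1 and -0.12 in replicate 2, against -0.50 and -0.06 for all genes.

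**Figure D3:**
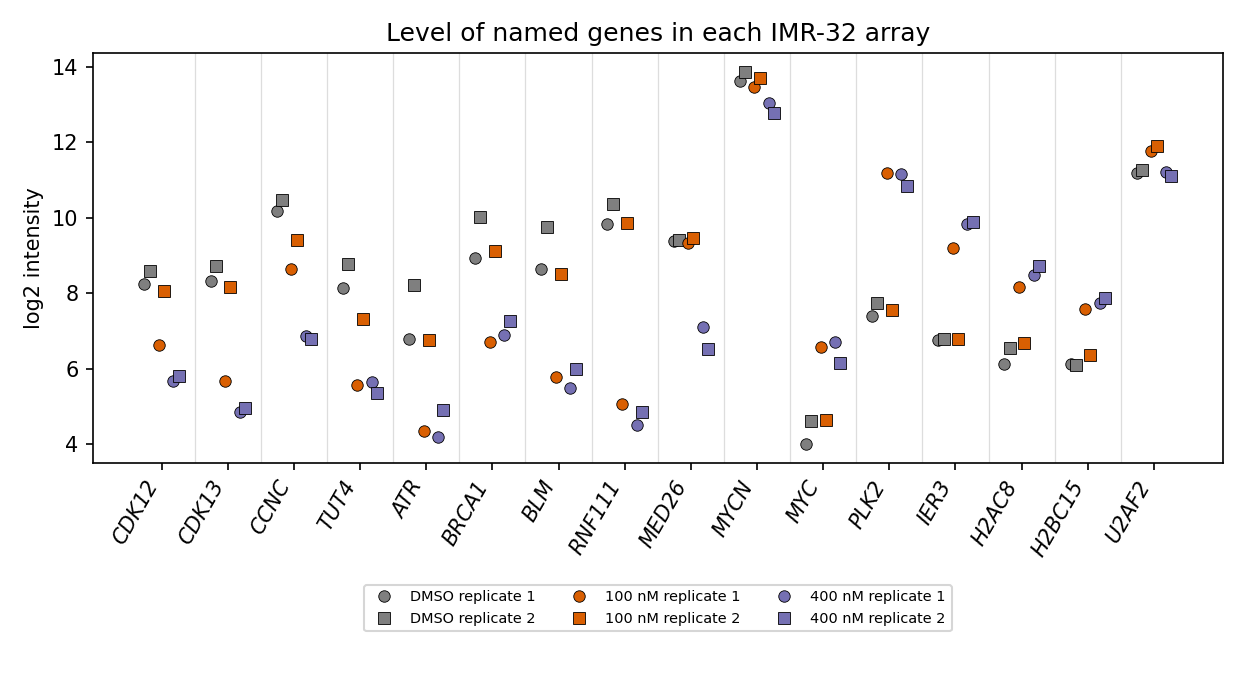
Log2 intensity of 16 named genes in each of the 6 IMR-32 arrays, with circles for replicate 1 and squares for replicate 2 of DMSO (grey), 100 nM (orange) and 400 nM (violet). For most of the genes the 100 nM replicate 1 point sits near the 400 nM points and the replicate 2 point near DMSO, as for RNF111 at 5.07 and 9.87.

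Genes of homologous recombination and the Fanconi anaemia pathway, which repair double-strand breaks and crosslinks, had the lowest median of all lists in replicate 1, at -2.11, against -0.24 in replicate 2. All 40 measured members were below the DMSO mean in replicate 1 and 36 of 40 were below it in replicate 2. Most of all genes lay below that mean too, with an upper quartile of -0.096 in replicate 1 and a median of -0.06 in replicate 2. Of the 40, 13 (32.5%) had both arrays below both DMSO arrays and 0 had both above, where 27.0% and 6.37% of all genes did, so the share below was near that of all genes. Changes of single members ran from -3.40 to -0.39 in replicate 1 and from -0.88 to 0.10 in replicate 2. Without replicate 2, 30 of the 40 were lower at a false discovery rate of 0.05, where 27.5% of all genes were. Under median centring and quantile normalization the list kept a lower median, as did the lists of checkpoint, mitosis, Mediator, KRAB zinc finger, nuclear pore and cullin genes.

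BLM encodes the helicase that dissolves recombination intermediates. It had 8.63 and 9.74 with DMSO and 5.79 and 8.52 with 100 nM, and its groups did not overlap, with a change of -2.03 ± 0.79. HELQ, a helicase of crosslink repair, had 6.85 and 7.71 with DMSO and 4.74 and 6.63 with 100 nM. FANCM, which remodels stalled forks, had 6.23 and 7.51 with DMSO and 4.03 and 6.18 with 100 nM. In each of these genes replicate 2 lay only just under the lower DMSO array. The DMSO arrays were themselves about 1 apart on the log2 scale, with replicate 1 the lower one.

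BRCA1 showed the overlap that most members of this list had. Its levels were 8.93 and 10.01 with DMSO, 6.71 and 9.13 with 100 nM, and 6.88 and 7.26 with 400 nM. BARD1, the partner of BRCA1, had 8.45 and 8.96 with DMSO and 5.52 and 8.57 with 100 nM. PALB2, which bridges BRCA1 and BRCA2, had 8.55 and 9.36 with DMSO and 6.07 and 8.59 with 100 nM. For all 3 genes replicate 2 fell between the DMSO arrays and replicate 1 below both. Without replicate 2 the changes were -2.76 ± 0.78, -3.18 ± 0.54 and -2.88 ± 0.62, with adjusted p of 0.033, 0.0044 and 0.012. EXO1, the exonuclease that resects broken ends, had 9.88 and 10.31 with DMSO and 6.73 and 9.86 with 100 nM, without overlap by a narrow margin.

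Checkpoint and damage signalling genes followed. Of 28 members 9 (32.1%) lay below DMSO in both arrays and 0 above, near the 27.0% of all genes, and the medians were -1.65 in replicate 1 and -0.11 in replicate 2. ATR, the kinase that senses single-stranded DNA, had 6.79 and 8.22 with DMSO, 4.35 and 6.76 with 100 nM, and 4.20 and 4.92 with 400 nM. Replicate 2 was almost level with DMSO replicate 1 and well below DMSO replicate 2. CLSPN, which encodes the adaptor claspin, had 6.61 and 7.09 with DMSO and 5.11 and 6.10 with 100 nM, the wider separation. ATM, the kinase that senses double-strand breaks, had 5.66 and 6.13 with DMSO and 6.96 and 5.45 with 100 nM, so the 2 treated arrays lay on opposite sides of DMSO. All 4 other probe sets of ATM had a mean change of the opposite sign to the one shown, 0.31 ± 0.54 (adjusted p = 0.78), and the mean over its probe sets was -0.59.

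In replicate 1 the other repair lists had medians nearer to 0. Excision repair, which removes damaged bases and adducts, had 13 of 35 genes (37.1%) below DMSO in both arrays, beside 27.0% of all genes, with medians of -1.15 and -0.08. ERCC2, the helicase of TFIIH, had 8.22 and 8.13 with DMSO and 7.23 and 7.83 with 100 nM. XRCC4, the ligase partner of end joining, had 6.03 and 6.84 with DMSO and 4.39 and 5.56 with 100 nM. Both genes had replicate 2 below the DMSO arrays, XRCC4 by the larger step. The 15 end joining and mismatch repair genes had 6 below and 1 above, beside 27.0% and 6.37% of all genes, and medians of -0.90 and -0.20. Over both arrays their median change was -0.59, and with quantile normalization it was -0.034. The 1 above was PMS1, a mismatch repair gene, with 6.46 and 6.24 with DMSO and 8.73 and 6.52 with 100 nM, and 4 of its 6 other probe sets went the opposite way.

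Genes of cell division lay low in replicate 1 as well. The 33 mitosis genes had medians of -1.65 and -0.15, with 16 (48.5%) below DMSO in both arrays and 0 above, beside 27.0% and 6.37% of all genes. KIF11, the motor that pushes spindle poles apart, had 9.88 and 10.92 with DMSO and 7.87 and 9.79 with 100 nM. NDC80, which ties kinetochores to microtubules, had 8.56 and 10.10 with DMSO and 5.43 and 8.60 with 100 nM. The first did not overlap DMSO and the second did, each by a narrow margin. DNA replication genes had 23 of 46 (50.0%) below in both arrays, beside the same 27.0%, with medians of -1.22 and -0.11. TOP2A, the topoisomerase that untangles replicated DNA, had 10.14 and 11.72 with DMSO and 9.44 and 9.87 with 100 nM. Here the DMSO arrays were farther apart than the 100 nM arrays were from each other.

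RNA processing genes were split by level of change. The 29 cleavage, polyadenylation and termination genes had medians of -1.17 and -0.09, with 11 (37.9%) below DMSO in both arrays and 1 (3.45%) above, beside 27.0% and 6.37% of all genes. INTS8, a subunit of the Integrator complex, had 9.0 and 9.67 with DMSO and 6.65 and 8.54 with 100 nM, without overlap. PCF11, a termination factor that binds the polymerase tail, had 7.35 and 8.71 with DMSO and 5.88 and 7.60 with 100 nM, so replicate 2 fell inside the DMSO range. The 41 spliceosome genes had smaller medians of -0.68 and -0.10, with 14 (34.1%) below and 1 (2.44%) above. The 34 genes of RNA polymerase II and elongation factors had medians of -0.80 and -0.10, with 12 (35.3%) below and 0 above, beside the same 27.0% and 6.37% of all genes. Of the 34, SETD2, the methyltransferase that travels with the polymerase, had 9.38 and 10.36 with DMSO and 7.72 and 9.37 with 100 nM.

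KRAB and other zinc finger genes, most of which encode DNA-binding repressors, had the lowest median of the 32 lists in replicate 2. It was -0.34, with 56 of 61 genes below the DMSO mean, and in replicate 1 it was -1.58 with 58 of 61 below. The change of all genes had an upper quartile of -0.096 in replicate 1 and a median of -0.06 in replicate 2, so most genes lay below that mean. Both arrays lay below both DMSO arrays for 35 of 61 genes, beside 27.0% of all genes, and above for 0. ZNF181 had 6.29 and 7.50 with DMSO, 3.88 and 5.84 with 100 nM, and 3.63 and 3.48 with 400 nM. ZNF93, whose protein binds retrotransposons, had 7.75 and 8.93 with DMSO and 5.97 and 7.44 with 100 nM. ZNF615 had 5.97 and 7.11 with DMSO and 5.18 and 5.37 with 100 nM. In all 3 genes replicate 2 lay under the lower DMSO array, and in ZNF615 it was nearly level with replicate 1. The DMSO arrays of each gene were farther apart than replicate 2 lay below the lower of them, which was DMSO replicate 1. The changes were -2.04 ± 0.64, -1.64 ± 0.54 and -1.26 ± 0.51.

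Nuclear pore genes had medians of -1.57 and -0.14, with 12 of 28 (42.9%) below in both arrays, beside 27.0% of all genes. Cullin, F-box and anaphase-promoting complex genes, which tag proteins for breakdown, had medians of -1.54 and -0.16, with 16 of 33 (48.5%) below. CDC27, a subunit of the anaphase-promoting complex, had 9.80 and 10.47 with DMSO and 8.26 and 9.46 with 100 nM. Housekeeping lists differed in the size of their change. Proteasome genes had medians of -0.59 and -0.11, with 11 of 28 (39.3%) below in both arrays. Cytosolic ribosomal protein genes had medians of -0.30 and -0.05, with 5 of 66 below, and oxidative phosphorylation genes had -0.27 and -0.04, with 8 of 43 below. The shares of the ribosomal protein and oxidative phosphorylation lists lay under the 27.0% of all genes, and their medians lay above that of all genes in replicate 1. Under median centring these lists and the proteasome list had positive medians, and ACTB, GAPDH and MYCN changed sign.

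**Figure D4:**
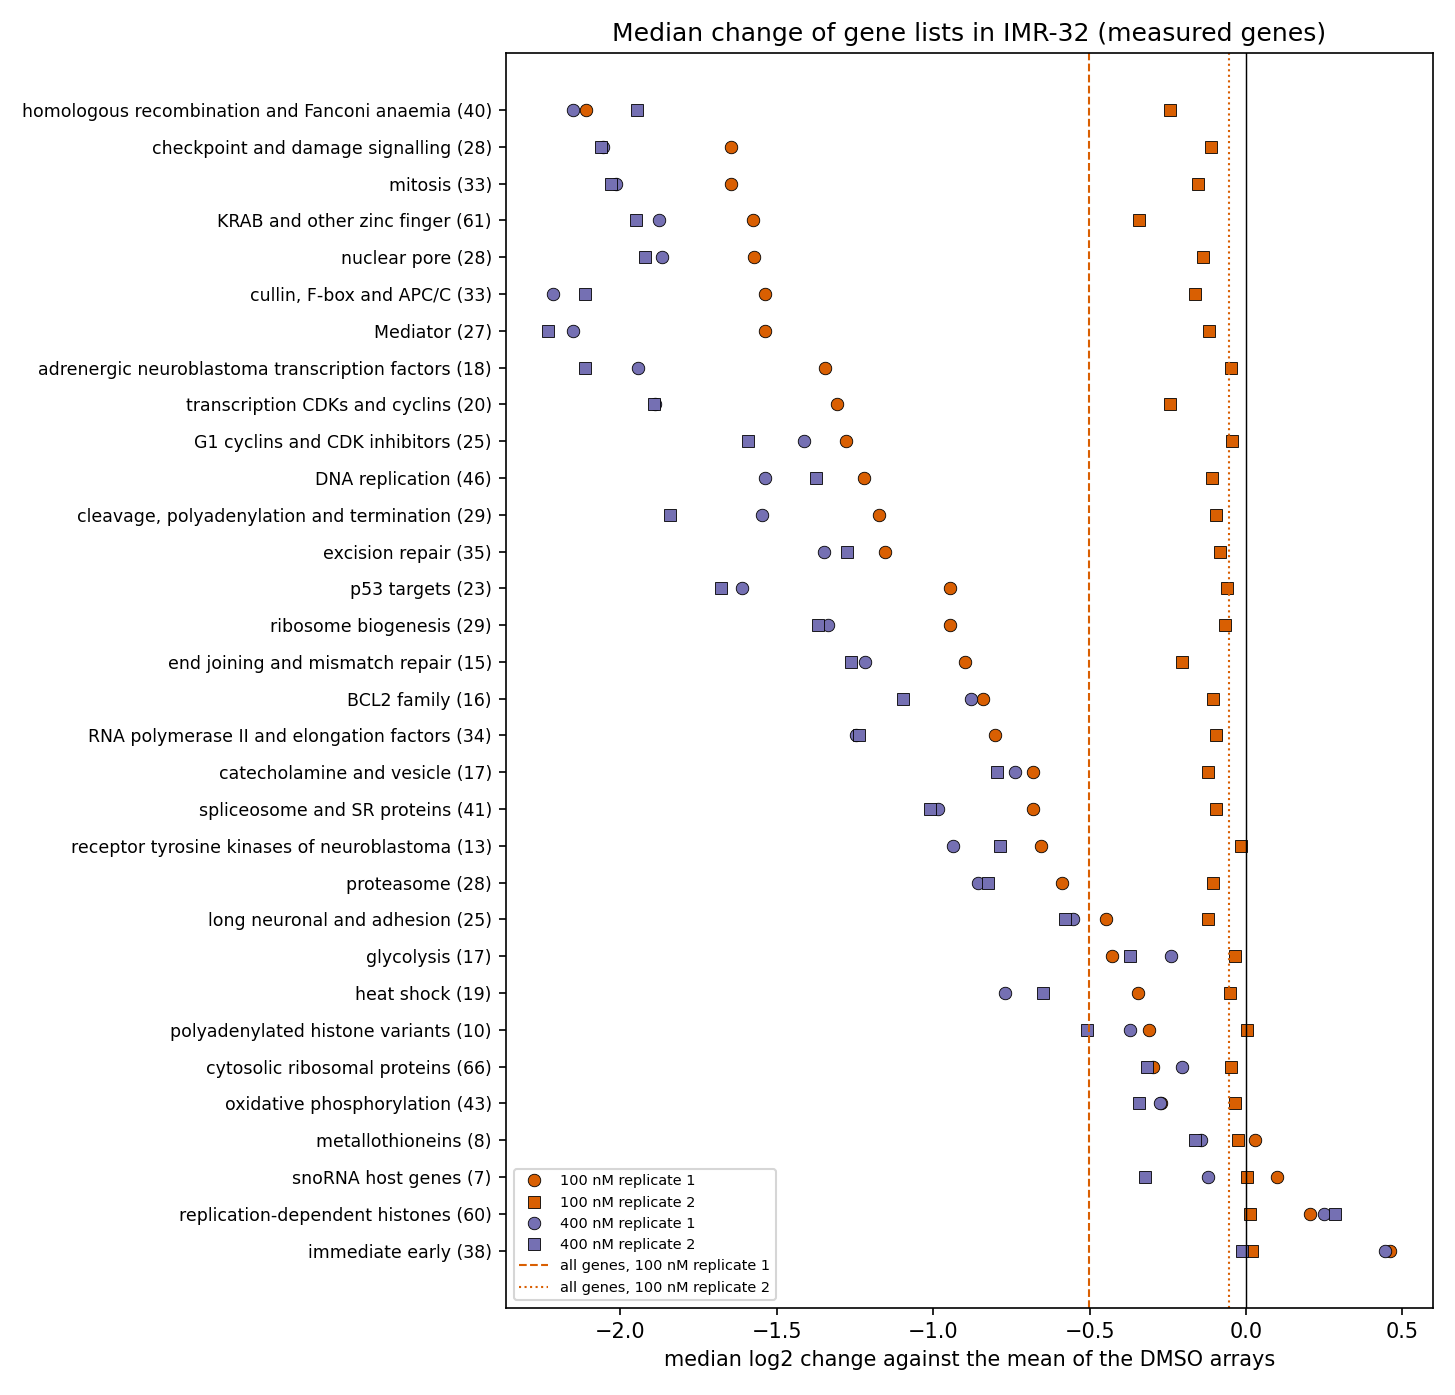
Median log2 change of 32 gene lists (with the number of measured genes) in each treated IMR-32 array against the mean of the DMSO arrays. Circles are replicate 1 and squares replicate 2, in orange for 100 nM and violet for 400 nM, and lines mark the medians of all genes at 100 nM (-0.50 dashed, -0.06 dotted).

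The genes that define the adrenergic state of neuroblastoma differed mostly in replicate 1. The 18 measured transcription factors of this state had medians of -1.34 and -0.05, with 4 (22.2%) below DMSO in both arrays and 1 (5.56%) above, no more than the 27.0% and 6.37% of all genes. DACH1 had 10.98 and 11.22 with DMSO and 6.93 and 10.82 with 100 nM, without overlap. HAND2 had 12.03 and 13.55 with 100 nM, and PHOX2A had 9.60 and 11.59, so that replicate 2 of each fell within the DMSO range. Without replicate 2, 12 of the 18 were lower and 1 was higher, where 27.5% and 0.685% of all genes were. MYCN, the amplified driver gene, had 13.61 and 13.87 with DMSO, 13.46 and 13.70 with 100 nM, and 13.03 and 12.76 with 400 nM. Its change was -0.17 ± 0.21 (adjusted p = 0.70), and replicate 2 lay between the DMSO arrays. ALK, a receptor kinase of this tumour, had 9.65 and 9.84 with DMSO and 8.31 and 9.67 with 100 nM.

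The genes with the widest gap between the groups were chosen so that both 100 nM arrays, replicate 2 included, lay outside the DMSO range. Among the 10 on the lower side, TUT4, which adds uridines to the let-7 precursor, had 8.15 and 8.77 with DMSO and 5.58 and 7.32 with 100 nM. TMF1, a Golgi-associated factor, had 6.51 and 6.89 with DMSO and 4.79 and 5.44 with 100 nM. GNE, the entry enzyme of sialic acid synthesis, had 10.20 and 10.44 with DMSO and 6.74 and 9.44 with 100 nM. For these genes replicate 2 lay 0.76 to 1.07 below the lower DMSO array. CETN3 (a centrin), TWSG1 (a secreted BMP-binding protein), TMEM38B (a channel of the endoplasmic reticulum), POMT1 (an O-mannosyltransferase), the olfactory receptor OR2AG2 and, as above, CCNC and ZNF615 complete the set, with changes from -2.23 for GNE to -0.76 for OR2AG2. Replicate 1 and the same DMSO arrays took part in this choice, so lower values of these genes without replicate 2 are no separate support.

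On the higher side the gaps were narrower. U2AF2, which reads the 3′ splice site, had 11.19 and 11.28 with DMSO, 11.76 and 11.91 with 100 nM, and 11.20 and 11.11 with 400 nM. Both 100 nM arrays were thus above DMSO while the 400 nM arrays lay at or below it, and 2 of the 3 other probe sets of U2AF2 went the opposite way. OAT, the mitochondrial ornithine aminotransferase, had 10.05 and 10.34 with DMSO and 11.18 and 10.74 with 100 nM (adjusted p = 0.58). RNF152, a lysosomal ubiquitin ligase, had 5.70 and 5.87 with DMSO and 6.66 and 6.20 with 100 nM. SHISA2 had 5.61 and 5.63 with DMSO, 8.38 and 6.00 with 100 nM, and 7.56 and 6.88 with 400 nM. DPY19L3, which mannosylates tryptophan, had 4.90 and 5.00 with DMSO and 8.90 and 5.42 with 100 nM, and 2 of its 4 other probe sets went the opposite way. KRT3, TNNI1, GHRHR, NUP62CL and LY6G6C complete the set, with changes of 0.37 to 0.82 and adjusted p of 0.465 to 0.467. For GHRHR, 2 of the 4 other probe sets went the opposite way.

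A second set was chosen for a large change in replicate 1 with replicate 2 inside the DMSO range, so its contrast between the replicates is given as a description. RNF111, a ubiquitin ligase of TGF-beta signalling, had 9.84 and 10.36 with DMSO, 5.07 and 9.87 with 100 nM, and 4.50 and 4.86 with 400 nM. MED13, of the Mediator kinase module, had 10.36 and 11.97 with DMSO and 6.69 and 10.66 with 100 nM. E2F7, a repressor of the cell cycle, had 9.84 and 10.05 with DMSO and 5.58 and 9.91 with 100 nM. E2F5, TBC1D9 and ZNF827 were alike, with levels of 5.47 to 6.04 in replicate 1 and 9.58 to 10.28 in replicate 2. On the higher side, PLK2, a stress-induced polo-like kinase, had 7.40 and 7.74 with DMSO, 11.19 and 7.57 with 100 nM, and 11.16 and 10.85 with 400 nM. SGK1, a serum-induced kinase, had 5.35 and 5.64 with DMSO and 8.45 and 5.57 with 100 nM. SNORA65, a small nucleolar RNA, had 6.46 and 6.26 with DMSO and 9.97 and 6.32 with 100 nM. The remaining genes were ING3, SNX5 and PANX1, and all 3 other probe sets of SNX5 went the opposite way.

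Immediate early genes, which respond to signals without new protein synthesis, stood higher as a group in replicate 1. Their median change was 0.46 in replicate 1 and 0.02 in replicate 2 over 38 measured genes. Both arrays lay above both DMSO arrays for KLF4, ATF3 and RGS16, by a gap of 0.10 to 0.21. For KLF2, IER3, EGR1, CCN1 and MYC they did so by only 0.0023 to 0.040. In all, 8 of 38 genes had both arrays above, beside 6.37% of all genes, and 1 had both below. Without replicate 2, 13 were higher and 3 lower, where 0.685% and 27.5% of all genes were.

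MYC was at 4.0 and 4.61 with DMSO, 6.57 and 4.65 with 100 nM, and 6.70 and 6.16 with 400 nM. Replicate 2 was level with the higher DMSO array and replicate 1 with the 400 nM arrays. IER3, an apoptosis regulator, had 6.77 and 6.80 with DMSO, 9.21 and 6.80 with 100 nM, and 9.84 and 9.90 with 400 nM. RGS16, which switches off G proteins, had 6.73 and 6.70 with DMSO and 9.47 and 6.94 with 100 nM. Without replicate 2 these 3 genes were higher by 2.26 ± 0.34, 2.43 ± 0.20 and 2.76 ± 0.24, with adjusted p of 0.0029, 5.93e-04 and 6.65e-04. JUND was the 1 gene of the list below DMSO in both arrays, with 8.82 and 8.80 with DMSO and 7.83 and 8.48 with 100 nM. CDKN1A, the cell cycle inhibitor p21, had 11.04 and 11.26 with DMSO and 11.34 and 11.13 with 100 nM, with a change of 0.08 ± 0.23 (adjusted p = 0.87).

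Replication-dependent histone genes, which are short, lack introns and normally end in a stem-loop in place of a poly(A) tail, had the next highest median. It was 0.21 in replicate 1 and 0.01 in replicate 2 over 60 measured genes, and the labelling kit used is primed from poly(A) tails. Both arrays lay above both DMSO arrays for 15 of 60 genes, beside 6.37% of all genes, and below for 6, beside 27.0%. Without replicate 2, 9 were higher and 0 lower, where 0.685% and 27.5% of all genes were. Among the other lists the median was above 0 in replicate 1 only for 7 snoRNA host genes (0.0978, and 0.0037 in replicate 2) and 8 metallothioneins (0.0281, and -0.0263 in replicate 2). Copies of these genes are near-identical, so a probe set may read several of them. H2AC8 had 6.12 and 6.54 with DMSO, 8.16 and 6.67 with 100 nM, and 8.48 and 8.73 with 400 nM. H2BC15 had 6.13 and 6.09 with DMSO, 7.58 and 6.35 with 100 nM, and 7.73 and 7.87 with 400 nM. H4C2 had 5.11 and 4.64 with DMSO, 5.85 and 5.15 with 100 nM, and 6.13 and 5.95 with 400 nM.

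In these 3 genes replicate 2 was just above DMSO and replicate 1 stood between DMSO and 400 nM. H1-2, a linker histone, went the other way, with 7.68 and 7.90 with DMSO and 7.12 and 7.31 with 100 nM, and here the 2 treated arrays lay close together. The promoters of H2AC8, H2BC15 and H4C2 are printed because both treated arrays lay above DMSO and the gene passed the test without replicate 2. It was also asked that no other probe set of the gene went the opposite way. Only H2AC8 had another probe set, so H2BC15 and H4C2 could not fail this condition. The promoters are windows of 300 bases around the start of the gene in RefSeq annotation of GRCh38.p14. They lie at chr6:26216671-26216970 (plus strand), chr6:27838319-27838618 (plus strand) and chr6:26027234-26027533 (minus strand). Capitals mark the CCAAT box, the TATAAA box and the octamer ATTTGCAT, searched on both strands, so that a motif of the other strand appears as its reverse complement, and these motifs do not overlap one another here.
H2AC8: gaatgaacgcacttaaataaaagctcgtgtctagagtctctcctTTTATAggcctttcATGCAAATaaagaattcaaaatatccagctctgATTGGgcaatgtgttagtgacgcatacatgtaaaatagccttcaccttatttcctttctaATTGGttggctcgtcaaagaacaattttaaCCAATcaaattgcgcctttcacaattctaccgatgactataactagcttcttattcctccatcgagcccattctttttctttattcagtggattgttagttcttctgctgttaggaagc
H2BC15: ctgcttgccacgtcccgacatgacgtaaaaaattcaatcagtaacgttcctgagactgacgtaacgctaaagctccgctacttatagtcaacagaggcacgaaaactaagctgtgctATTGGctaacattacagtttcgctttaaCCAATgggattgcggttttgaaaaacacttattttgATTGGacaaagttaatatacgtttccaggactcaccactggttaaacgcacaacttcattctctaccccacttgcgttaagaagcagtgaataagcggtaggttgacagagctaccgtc
H4C2: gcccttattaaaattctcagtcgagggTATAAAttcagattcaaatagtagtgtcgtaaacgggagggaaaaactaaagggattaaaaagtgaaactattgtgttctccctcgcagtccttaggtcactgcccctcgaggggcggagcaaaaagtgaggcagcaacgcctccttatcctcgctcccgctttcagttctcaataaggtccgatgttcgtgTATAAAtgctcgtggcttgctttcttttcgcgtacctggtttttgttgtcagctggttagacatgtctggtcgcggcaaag
H2AC8 held 3 CCAAT, 1 TATAAA and 1 octamer, H2BC15 held 3 CCAAT, and H4C2 held 2 TATAAA. The TATAAA and the octamer of H2AC8 appear as reverse complements. The overlapping window of H2BC8, on the minus strand, holds the same bases in forward orientation. Among 27305 promoters of the same length, 35.7% held CCAAT, 12.0% TATAAA and 1.8% the octamer. Of 55 replication-dependent histone genes with a promoter window, 48 held CCAAT, 36 TATAAA and 26 the octamer. Among the 15 histone genes with both arrays above DMSO the numbers were 12, 12 and 7. H3C4, a member of the 15, had the same window as H2AC7. Windows of some neighbouring genes overlap, such as those of H2AC8 and H2BC8, so these are not all separate promoters. A match describes the letters only.

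The change also ran with gene span, the distance from start to end of the gene in the annotation, in 18192 genes with a span. In replicate 1 the median change was -0.23 for the shortest quartile (up to 9.26 kb), then -0.47, -0.74, and -0.81 for the longest quartile (over 67.5 kb). In replicate 2 the medians were -0.02, -0.04, -0.08 and -0.10, the same order in steps of under 0.05. Both arrays lay below both DMSO arrays for 18.6% of the shortest and 34.0% of the longest quartile, and above for 9.54% and 4.97%. Among genes above the median level of all rows, the medians of replicate 1 ran from -0.48 to -1.35 and those of replicate 2 from -0.04 to -0.13. The change also went with level, with medians in replicate 1 of -0.08 in the lowest quartile of mean level and -1.16 in the third, and the parts of span and level were not tested against each other.

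**Figure D5:**
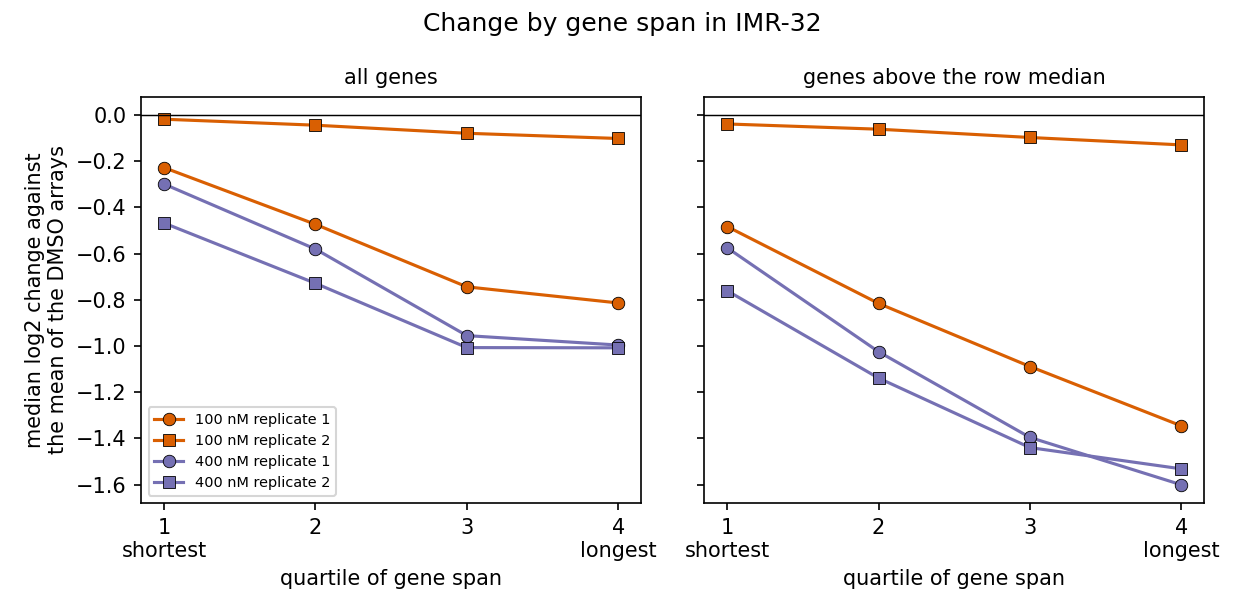
Median log2 change against the mean of the DMSO arrays by quartile of gene span, in each treated IMR-32 array, for all genes (left) and for genes above the median level of all rows (right). In replicate 1 with 100 nM the medians of all genes ran from -0.23 to -0.81 and in replicate 2 from -0.02 to -0.10.

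The step from 100 to 400 nM in IMR-32 was tested in the same fit. With both 100 nM arrays, 1 gene (0.00548%) was lower and 0 higher at 400 nM, while 3563 genes lay lower and 46 higher with an unadjusted p below 0.05. The 1 gene was MED26, the Mediator subunit that recruits elongation factors. It had 9.39 and 9.42 with DMSO, 9.32 and 9.46 with 100 nM, and 7.11 and 6.53 with 400 nM, so both 100 nM arrays lay at DMSO and both 400 nM arrays far below. The step was -2.58 ± 0.23 (adjusted p = 0.029), and the call was lost when any 1 of the 12 arrays other than 100 nM replicate 1 was left out. Without 100 nM replicate 1, 5956 genes (32.6%) were lower and 102 (0.559%) higher at 400 nM. Without 100 nM replicate 2 the count was 0, and 1193 genes lay lower and 53 higher with an unadjusted p below 0.05.

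Other genes with small p-values for the step were also near DMSO in at least 1 of the 100 nM arrays. CIART, a repressor of the clock, had 7.72 and 8.13 with DMSO, 7.66 and 8.10 with 100 nM, and 6.19 and 5.79 with 400 nM. FAM83D, a spindle protein, had 10.64 and 10.73 with DMSO, 10.12 and 10.67 with 100 nM, and 8.0 and 7.30 with 400 nM. FOS had 7.39 and 7.49 with DMSO, 8.12 and 7.42 with 100 nM, and 8.90 and 8.73 with 400 nM. In FAM83D and FOS replicate 1 stood apart from DMSO and replicate 2 did not. The steps were -1.89 ± 0.26 for CIART, -2.74 ± 0.36 for FAM83D and 1.05 ± 0.24 for FOS, with adjusted p of 0.16, 0.16 and 0.18.

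In Kelly the 100 nM arrays also differed from each other, with median changes of -0.17 and -0.48. A test of whether the 100 nM change differed between the lines called 0 genes, with a smallest adjusted p of 1.0, and 91 genes had a lower and 279 a higher change in IMR-32 with an unadjusted p below 0.05. Without IMR-32 replicate 2, 380 genes (2.08%) had a lower and 6 genes (0.0329%) a higher change in IMR-32. Without replicate 1 the count was 0, and 124 genes had a lower and 981 a higher change with an unadjusted p below 0.05. SCARNA14, a small Cajal body RNA, had changes of -0.39 and -0.15 in the IMR-32 arrays and 2.08 and 1.78 in the Kelly arrays. SNORA12 had -0.71 and -0.17 in IMR-32 and 1.47 and 1.05 in Kelly. ARHGEF37 had 0.30 and 0.59 in IMR-32 and -0.86 and -0.94 in Kelly. In these 3 genes all arrays of 1 line lay on the opposite side of DMSO from all arrays of the other line, and none of the 3 passed the adjusted test of the difference over all arrays. SCARNA14 and SNORA12 passed it without IMR-32 replicate 2, with adjusted p of 0.033 and 0.037.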

How the data were processed

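Log2 levels of 4 IMR-32 arrays (2 DMSO and 2 at 100 nM THZ531, 6 h) were compared, with the other 8 arrays of the series in the same fit. The authors deposited a table of linear intensities, already normalized, with 49495 rows and values from 0.893 to 33557. The submitters' processing notes list MAS5, affy and R 3.1.3, and the methods of the study describe a custom array definition with ERCC probe sets and a loess fit to the spike-in signals, which sets the scale between arrays. A shift of most genes is therefore kept, and an error in the amount of spike-in would appear as such a shift.

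Values were log2 transformed without a pseudocount or a filter on low values, and the scaling was kept as deposited. Probe sets were named from the platform annotation, with symbols updated by gene identifier: a single symbol was found for 45278, several for 1333 and no annotation entry for 2682. Rows with several or no symbols, 100 ERCC rows and 102 array control rows were left out of the gene tests. Where a gene had more than 1 probe set (11825 genes), the brightest by its mean over 12 arrays was kept, which gave 18244 genes. Genes of the lists without a probe set, among them 4 of the 22 always reported, were not analysed here.

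Group means were fitted with limma 3.58.1 (lmFit, then eBayes; R 4.3.3) to 12 arrays, which left 6 residual and 2.85 prior degrees of freedom and a prior SD of 0.297. Tests were two-sided, with Benjamini-Hochberg adjustment over all genes at a false discovery rate of 0.05. The labels do not say what else separates the duplicates, so p-values measure the spread between these arrays. The contrasts were 100 nM against DMSO, 400 against 100 nM, and the difference between lines in the effect of 100 nM. The script was tested on simulated data. Labels were read with jsonlite 2.0.0, and tables and figures were made with pandas 2.3.3 and matplotlib 3.10.9 in Python 3.11.15. Promoter sequences and gene spans came from RefSeq tables of GRCh38.p14.

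Named genes were the 10 each way with the widest gap between the groups, 6 each way with the largest change in replicate 1 while replicate 2 lay within the DMSO range, a fixed set of genes always reported, the 2 to 4 members of a list with the smallest p, and 5 each way for the dose step and for the lines. The first, second and last of these were taken among genes with a group mean above the median of all rows (6.40). Lists were described by counts and medians. The members and lists were chosen with earlier results of these data known. H4C2, IER3 and the choice of promoters were taken from their lists after their values were seen.

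The alternatives were median centring, quantile normalization, ERCC means set equal, probe sets averaged by gene or tested one by one, only genes above the median of all rows, a pseudocount of 16, a fit to the compared arrays alone, the trend and robust options of eBayes, a replicate block, and leaving out each array.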

Additional observations from a re-analysis of the deposited data

Results flagged for a closer look

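The 4 measured leukocyte markers had median changes at 100 nM of 0.005721 and 0.05621 in the IMR-32 arrays. In the Kelly arrays the medians were -0.1894 and -0.5151. The signs were opposite, but the IMR-32 medians were near 0. In IMR-32, 2 of the 4 markers lay below the DMSO mean in replicate 1 and 1 did in replicate 2. The difference between the lines was not tested. The markers had log2 levels of 4.17 to 6.65 in IMR-32 cells given DMSO.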

How the results depend on the processing

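The count of 0 genes lower and 0 higher at 100 nM held under every alternative run except leaving out 100 nM replicate 2, where the counts without 1 array ran from 0 to 5020 lower and 0 to 125 higher. With the replicate number as a block (replicate block) the counts stayed at 0, and 752 genes lay lower and 58 higher with an unadjusted p below 0.05. With 2 arrays a group the numbers are not shown to pair the samples (correlation of deviations 0.24 between the IMR-32 DMSO and 100 nM arrays). With each probe set separately, 2113 of 45278 probe sets lay lower and 212 higher with an unadjusted p below 0.05. The numbers of lower and higher genes at this p were 720 and 1101 with median centring, and 565 and 483 with quantile normalization. They were 271 and 7 among genes above the median of all rows, and 40 and 10 with only the arrays of the comparison. Without DMSO replicate 2 they were 56 and 92, 339 and 54 when a Kelly DMSO array was dropped, and 319 and 61 when a 400 nM array of IMR-32 was.

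Over all genes the median was -0.30 as deposited, but 0.15 after median centring and 0.0696 after quantile normalization. Genes with both arrays below DMSO numbered 2689 and above 5231 with median centring, and 2319 and 4830 with quantile normalization. With each probe set separately, 13536 lay below and 2690 above, out of 45278 probe sets and not of 18244 genes. Among genes over the median of all rows, 162 lay above. Without 1 array the rule asks for fewer arrays, so more genes can meet it than the 4919 and 1163 of the full rule. The counts of genes then ran from 5747 to 13264 below and 1923 to 3498 above. For the dose step, 24 genes were lower with median centring, 73 lower and 4 higher with quantile normalization, and 0 lower with the mean of probe sets, each probe set, only the arrays of the comparison, trend and robust options, the replicate block, or without any 1 array outside the comparison (an alternative chosen after seeing the data). Without 1 array of the comparison the step had 0 to 5956 lower and 0 to 102 higher genes, and the difference between lines 0 to 380 lower and 0 to 6 higher. The cause of these moves was not tested.

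Some medians that kept their sign moved by over 1.5 times. That of replication-dependent histone genes was 0.11 as deposited, 0.56 with median centring and 0.38 with quantile normalization, and that of immediate early genes 0.21, 0.66 and 0.79.

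With median centring the change turned to 0.10 for CCNK, 0.28 for MYCN, 0.21 for GAPDH and 0.33 for ACTB, and list medians to 0.0487 for spliceosome, 0.25 for polyadenylated histone variant, 0.0843 for catecholamine, 0.12 for receptor kinase, 0.27 for ribosomal protein, 0.28 for oxidative phosphorylation, 0.0447 for proteasome, 0.21 for glycolysis, 0.19 for heat shock, 0.44 for metallothionein, 0.14 for long neuronal and 0.44 for snoRNA host genes. With quantile normalization the change turned to 0.18 for CCNK and 0.0610 for ACTB, and list medians to 0.0091 for RNA polymerase II, 0.16 for catecholamine, 0.12 for receptor kinase, 0.079 for BCL2 family, 0.0613 for oxidative phosphorylation, 0.014 for glycolysis, 0.43 for metallothionein, 0.0433 for long neuronal and 0.23 for snoRNA host genes. With the mean of probe sets ATM turned to -0.59 and metallothioneins to 0.0204, and among genes above the median of all rows metallothioneins had 0.0539.

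Without 1 array, the change ran from -0.0029 to 3.62 for PLK2, -0.0369 to 3.61 for SNORA65, -0.0570 to 2.93 for ING3, -0.13 to 2.88 for SNX5, -0.69 to 0.0018 for CCNK, -0.45 to 1.07 for ATM, -0.24 to 0.00064 for ACTB and -0.0260 to 0.19 for CDKN1A, and the list medians from -0.31 to 0.0035 for polyadenylated histone variants, -0.0263 to 0.0281 for metallothioneins and -0.13 to 0.10 for snoRNA hosts. All of these genes crossed 0 without 100 nM replicate 1, CDKN1A also without DMSO replicate 1 and ACTB without DMSO replicate 2. Signal over background was not given in the table, so dim genes could not be set apart by detection.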

Other observations

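In 760 genes (4.17%) both 100 nM arrays lay above all 4 other IMR-32 arrays, and in 126 genes (0.691%) below all 4, a rule set after the values were seen. U2AF2 and OAT, both described above, were among the first. PYY2, a pseudogene-like member of the peptide YY family, had 6.60 and 6.69 with DMSO, 7.23 and 7.0 with 100 nM, and 6.62 and 6.52 with 400 nM. SNORD9, a small nucleolar RNA, had 6.13 and 6.15 with DMSO, 6.41 and 6.39 with 100 nM, and 6.12 and 5.88 with 400 nM. TBX15, a T-box factor, lay below the other arrays, with 6.40 and 6.47 with DMSO, 6.09 and 5.70 with 100 nM, and 6.30 and 6.43 with 400 nM. COX6C, a subunit of cytochrome c oxidase, lay below them by a smaller step, and 1 of its 2 other probe sets went the opposite way. It had 12.66 and 12.78 with DMSO, 12.52 and 12.58 with 100 nM, and 12.65 and 12.63 with 400 nM. No test was made of the counts of 760 and 126 genes.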
